A study of Mus musculus with 9 samples.

Results

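Ribosome biogenesis genes were examined in mouse N2A neuroblastoma cells depleted of either EXOSC3 or DDX1. The 42 genes were picked by name for their known part in making or assembling ribosomal RNA, and each was found by its symbol among the 24318 genes of the deposited expression tables. The study used rRNA-depleted RNA-seq to ask which transcripts respond to loss of EXOSC3, a cap subunit of the RNA exosome, and to loss of DDX1, a putative RNA helicase of the DEAD-box family. N2A (Neuro2A) is an established neuroblastoma line with features of young neurons. The 9 samples fall into 3 groups of 3 libraries each: cells given a scramble control siRNA (labelled WT), cells given EXOSC3 siRNA (siEXOSC3) and cells given DDX1 siRNA (siDDX1). All 9 came from this 1 line, were labelled as otherwise untreated, and were transiently transfected with siRNA by the same lipid reagent. The labels give no passage, batch or date, so p-values measure only the spread between these cultures. Levels are FPKM, sequenced fragments scaled to transcript length and to the size of the library. One table held siEXOSC3 with scramble and the other held siDDX1 with the same 3 scramble libraries, scaled separately, so each knockdown was tested only within its own table.

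Ribosome production starts in the nucleolus, where RNA polymerase I makes 1 long precursor that holds the 18S, 5.8S and 28S rRNAs between spacer sequences. Small nucleolar RNAs (snoRNAs), carried by box C/D and box H/ACA proteins, guide methylation and pseudouridylation of that precursor. The small-subunit (SSU) processome, built on the U3 snoRNA, assembles on its leading end and releases a pre-40S particle, which matures in the cytoplasm. Other factors, such as the PeBoW complex, build the 60S subunit, and the RNA exosome trims the 3′ end of 5.8S rRNA. Growing cells express these factors at high levels, and many of their genes are known targets of MYC.

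The targeted transcripts matched their labels. Exosc3 measured 6.84, 7.68 and 6.01 FPKM in siEXOSC3 and 45.8, 43.8 and 42.7 FPKM in scramble, and Ddx1 measured 28.05, 28.7 and 34.8 FPKM in siDDX1 and 130, 126 and 119 FPKM in scramble. Exosc3 stood at 15.5% of its scramble mean in siEXOSC3 (6.84 ± 0.836 against 44.1 ± 1.56 FPKM, SD, n = 3 each), and Ddx1 at 24.4% in siDDX1 (30.5 ± 3.73 against 125 ± 5.40 FPKM, SD, n = 3 each). The groups did not overlap in either case, and the exact two-sided permutation test of 3 against 3 gave 0.1, the smallest p it allows. Absolute depth is unknown from FPKM, and the size of single-fragment steps at low genes put the libraries between 0.827 and 1.2 times the depth of scramble replicate 1. Of 11 N2A neural markers, 9 were tested, and Nefl and Nefm lay near 0. Col1a2, Lum, Kdr and Aqp4, defining markers of fibroblasts, endothelium and astrocytes, were listed at 0 in every library, and the immune gene Ptprc did not exceed 0.00891 FPKM. Taf1a, a general RNA polymerase I factor, was also listed at 0 throughout, so a listed 0 in these tables does not by itself show that a gene was silent. The summed fibroblast, immune and astrocyte lists stayed at or under 0.686, 1.83 and 0.569 FPKM in every library.

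Members were well expressed in control cells. Their mean scramble level ran from 12.6 FPKM for Rrp8, a methyltransferase of 28S rRNA, to 2036 FPKM for Npm1, the abundant nucleolar chaperone nucleophosmin. The median member was at 51.8 FPKM against 14.1 FPKM for all genes tested, and 41 of the 42 lay above that median. All 42 therefore passed the filter of a mean of 1 FPKM in both tables, and none passed only through 1 group.

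After EXOSC3 depletion part of this group was lower at the mRNA level. Of 42 members, 17 (40.5%) were decreased and 0 increased by limma at a Benjamini-Hochberg adjusted p under 0.05. Among all 11242 genes tested the corresponding shares were 15.7% decreased and 16.7% increased, or 32.4% in either direction. By role, 11 of the 21 SSU processome and later 40S members were decreased and 6 of the 21 others, a difference that was not tested. At an unadjusted p under 0.05, 25 of the 42 members were lower and 0 higher, against 2626 lower and 2476 higher of all 11242 genes. The log2 fold change, knockdown minus scramble on log2(FPKM + 1), was below 0 for 39 members (92.9%, against 51.9% of all genes). Its median was -0.29 and its range -0.58 to 0.10, while the median of all genes was -0.01. All 3 siEXOSC3 values lay below all 3 scramble values in 22 members (52.4%, against 25.9% of all genes). They lay above in 1, Nop14 (2.38%, against 23.8% of all genes). These are bulk cultures, in which fewer cells of a kind and less RNA per cell cannot be told apart.

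**Figure D1:**
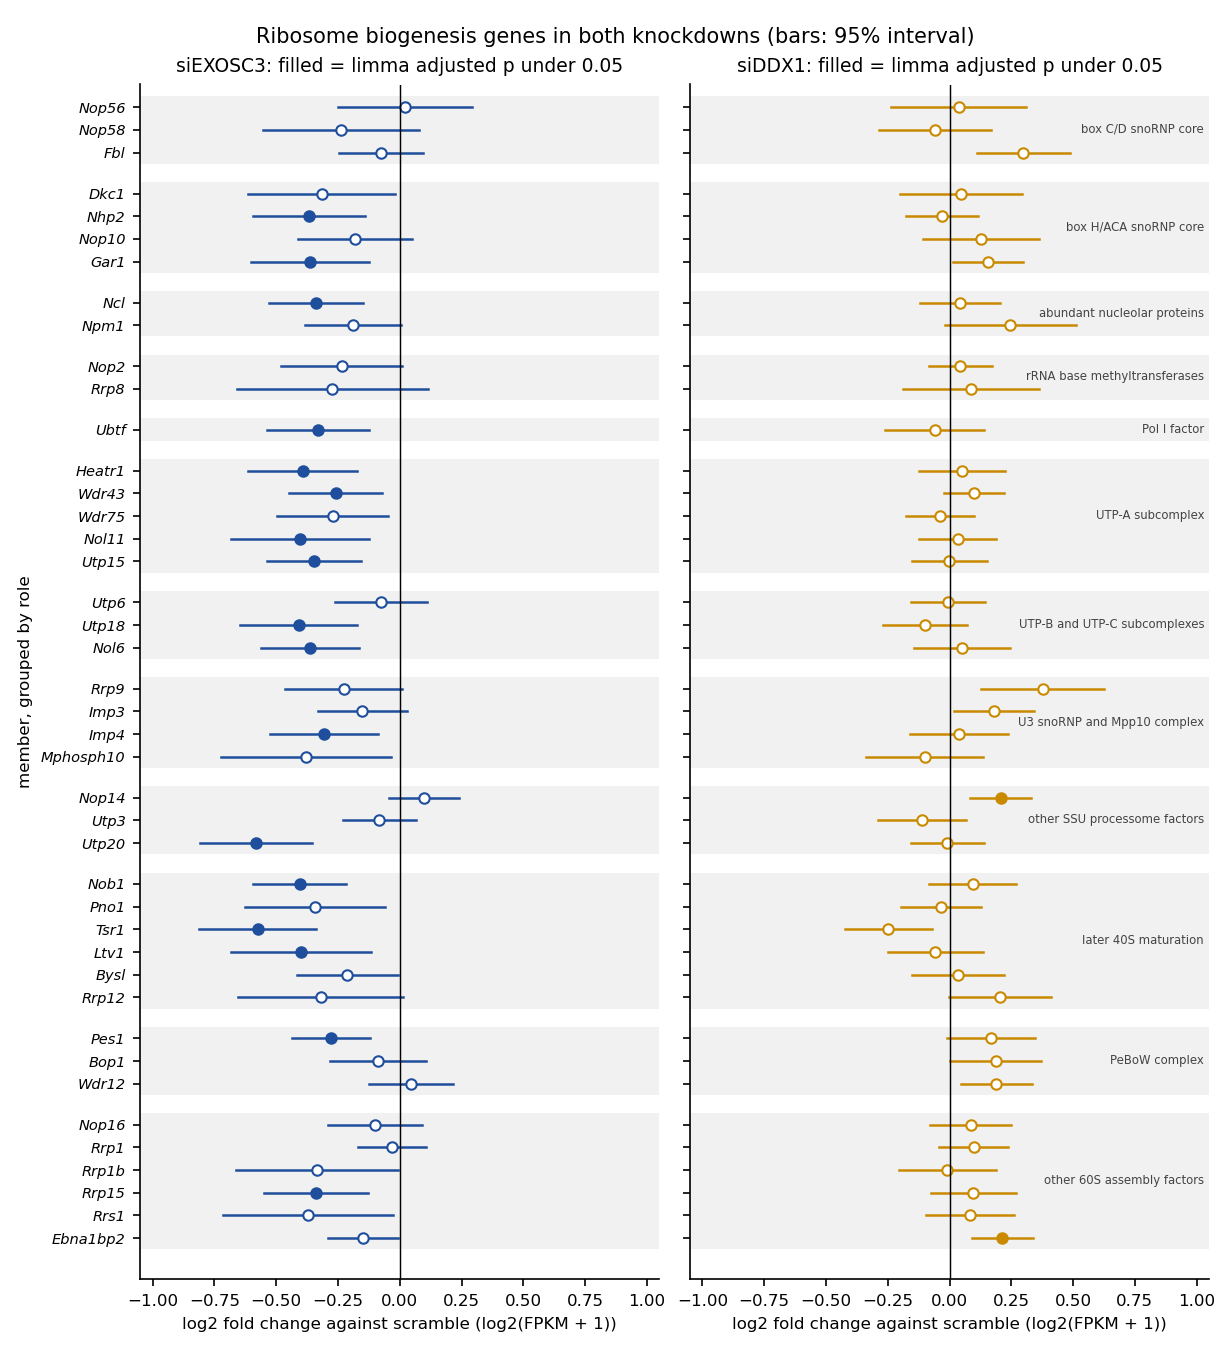
Log2 fold change against scramble for each of the 42 genes, on the log2(FPKM + 1) scale, in siEXOSC3 (left) and siDDX1 (right). Points are limma estimates from 3 against 3 libraries, bars are 95% intervals, filled points have an adjusted p under 0.05 and shaded blocks group genes by role. In siEXOSC3 39 of 42 points lie left of 0 and 17 are filled. In siDDX1 28 lie right of 0 and 2 are filled.

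The largest decreases were those of Utp20 and Tsr1. Utp20, a very large repeat protein of the SSU processome, measured 15.7, 17.8 and 13.5 FPKM in siEXOSC3 and 25.2, 22.8 and 23.5 FPKM in scramble. Its siEXOSC3 mean was 65.7% of scramble, a log2 fold change of -0.58 (SE 0.0994, limma adjusted p = 0.00482). Tsr1, a GTPase-like factor that holds the pre-40S particle in an immature state, measured 34.4, 39.8 and 29.2 FPKM against 52.8, 50.2 and 51.4 FPKM. This was 67.0% of scramble, a log2 fold change of -0.57 (SE 0.103, limma adjusted p = 0.00588). For both genes every siEXOSC3 library was below every scramble library, with replicate 3 lowest and replicate 2 nearest to the controls. Utp20 lies on the minus strand of chr10:88209352-88289559 and Tsr1 on the plus strand of chr11:74711573-74722844 (mm9 coordinates, GENCODE). Their promoters, 250 bases before to 50 after the RefSeq start on the gene's own strand, are shown because these genes fell most. Capitals mark the E-box CACGTG, the known core site of MYC and related factors, and the ETS-type motif CCGGAAG. The Utp20 window is chr10:88826765-88827064 (minus strand) and the Tsr1 window chr11:74897830-74898129 (plus strand), both in GRCm38.p6, a later build than that of the tables.
Utp20 promoter: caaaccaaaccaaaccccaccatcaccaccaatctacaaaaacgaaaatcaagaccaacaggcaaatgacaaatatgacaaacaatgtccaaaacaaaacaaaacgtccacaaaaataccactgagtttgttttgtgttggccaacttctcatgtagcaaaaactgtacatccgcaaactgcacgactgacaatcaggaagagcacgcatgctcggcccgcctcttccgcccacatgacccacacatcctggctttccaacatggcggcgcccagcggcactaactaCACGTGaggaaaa
Tsr1 promoter: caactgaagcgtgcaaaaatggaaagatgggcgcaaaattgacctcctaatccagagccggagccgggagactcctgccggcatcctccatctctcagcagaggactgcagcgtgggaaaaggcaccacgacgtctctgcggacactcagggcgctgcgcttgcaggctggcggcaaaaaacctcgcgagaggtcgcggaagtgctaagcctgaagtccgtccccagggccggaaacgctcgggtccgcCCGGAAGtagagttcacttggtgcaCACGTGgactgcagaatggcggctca
The Utp20 window held 1 E-box, 37 bases downstream of the start. The Tsr1 window held 1 E-box at 24 bases downstream and 1 ETS-type motif beginning 1 base upstream of the start.

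The same 2 motifs were counted in all RefSeq promoter windows, on both strands. Windows were found for 35 of the 42 members. The E-box was present in 10 of them (28.6%), against 12% of 8595 tested genes with a window and 8.09% of all 27025 windows. Among members decreased in siEXOSC3 it was present in 8 of 16 windows (50%): Utp20, Tsr1, Utp18, Nol11, Ltv1, Wdr43, Imp4 and Pes1. Among members with no call it was present in 2 of 19 (10.5%), namely Nop2, a cytosine methyltransferase of 28S rRNA, and Pno1. Among all genes with a window it was present in 13.4% of those decreased and 12.3% of those with no call. The difference between decreased and uncalled members was not tested, and the set of decreased members itself changed with single libraries. The ETS-type motif was present in 11 of 35 member windows (31.4%), against 21.8% of the tested genes, and the TATAAA motif in 3 (8.57%), against 7.83%. The ETS-type motif was found in 7 of 16 windows of decreased members (43.8%) and in 4 of 19 of those with no call (21.1%), and TATAAA in 2 of 16 and 1 of 19. Among all genes the ETS-type motif was in 25.9% of those decreased and 22.9% of those with no call, and TATAAA in 7.91% and 7.36%. These motif counts describe letters in a short window, and no binding was measured.

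The 8 members of the UTP-A, UTP-B and UTP-C subcomplexes, the early modules of the SSU processome, all had log2 fold changes below 0 in siEXOSC3. Of these 8, 6 were decreased, against 15.7% of all genes. In UTP-A, which links precursor transcription to processing, 4 of 5 were decreased, with a median log2 fold change of -0.35. Nol11 measured 42.6, 52.3 and 36.2 FPKM in siEXOSC3 against 61.3, 54.8 and 56.5 FPKM in scramble (log2 fold change -0.40, limma adjusted p = 0.0362). Heatr1, a large repeat protein of the same module, measured 17.8, 21.6 and 16.8 FPKM against 25.6, 23.6 and 25.1 FPKM (-0.39, limma adjusted p = 0.0171). Neither gene's groups overlapped, although Nol11 in siEXOSC3 replicate 2 came within a few FPKM of the lowest control. Utp15 measured 35.2, 37.2 and 30.6 FPKM against 46.3, 43.1 and 42.3 FPKM (-0.35, limma adjusted p = 0.0163). Wdr43 measured 54.7, 64.7 and 53.1 FPKM against 70.3, 68.1 and 68.0 FPKM (-0.26, limma adjusted p = 0.0418). Wdr43 was the decreased member closest to the threshold. On the other side of it stood Wdr75, the remaining UTP-A gene, with 62.4, 72.2 and 54.9 FPKM against 79.9, 72.8 and 75.5 FPKM (-0.27, limma adjusted p = 0.0651). Its groups did not overlap either.

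Utp18, a WD-repeat protein of UTP-B, measured 26.0, 30.2 and 23.4 FPKM in siEXOSC3 and 39.0, 34.4 and 32.9 FPKM in scramble. Its log2 fold change was -0.41 (SE 0.103, limma adjusted p = 0.0193). Nol6, the UTP-C member, measured 11.3, 12.6 and 10.2 FPKM against 14.6, 14.4 and 15.7 FPKM (-0.36, SE 0.0873, limma adjusted p = 0.0162). Both genes were lower in every siEXOSC3 library than in any control. Utp6, the other UTP-B gene, had overlapping groups and a log2 fold change of -0.07 (95% interval -0.26 to 0.11).

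The U3-associated members were decreased in 1 of 4 cases, against 15.7% of all genes. Imp4, which with Imp3 and Mphosph10 pairs U3 snoRNA to the precursor, measured 31.8, 34.7 and 26.6 FPKM in siEXOSC3 against 39.8, 37.5 and 37.7 FPKM (-0.30, limma adjusted p = 0.041). Its groups did not overlap. Mphosph10 had a larger estimate, -0.38, but its siEXOSC3 values of 37.5, 48.2 and 29.4 FPKM overlapped scramble (51.5, 48.5 and 47.6 FPKM, limma adjusted p = 0.0848). Imp3 at -0.15 and Rrp9, a U3-specific protein, at -0.23 had no call. Of the remaining SSU processome members, Utp3 was at -0.08 and Nop14 at 0.10, both with no call. Nop14 read 54.8, 59.2 and 55.4 FPKM in siEXOSC3 against 53.9, 52.3 and 51.7 FPKM in scramble.

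Later 40S maturation genes were decreased in 3 of 6 cases, against 15.7% of all genes. All 6 estimates were below 0, with a median of -0.37. Nob1, the endonuclease that makes the mature 3′ end of 18S rRNA, measured 43.1, 43.1 and 36.3 FPKM in siEXOSC3 against 53.9, 56.8 and 52.0 FPKM in scramble. Its log2 fold change was -0.40 (SE 0.0825, limma adjusted p = 0.00904), and its replicates 1 and 2 were alike. Ltv1, an assembly factor that must leave the particle before it matures, measured 52.1, 65.6 and 44.8 FPKM against 73.7, 67.8 and 71.1 FPKM (-0.40, SE 0.124, limma adjusted p = 0.0391). Ltv1 in replicate 2 was only just under the lowest control. Pno1, the partner of Nob1, measured 78.3, 88.5 and 62.4 FPKM against 105, 88.8 and 95.1 FPKM (-0.34, limma adjusted p = 0.0641), the nearest member without a call. Rrp12 at -0.32 and Bysl at -0.21 had overlapping groups.

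Among snoRNP proteins, box H/ACA members carried the decreases. Nhp2, a core protein of these pseudouridylation particles, measured 191, 219 and 166 FPKM in siEXOSC3 against 256, 239 and 244 FPKM in scramble (-0.37, limma adjusted p = 0.0247). Gar1, another core protein, measured 85.5, 91.7 and 69.3 FPKM against 100, 111 and 104 FPKM (-0.36, limma adjusted p = 0.0296). Neither overlapped its controls. Dkc1, the pseudouridine synthase itself, was at -0.32 (limma adjusted p = 0.0927) and Nop10 at -0.18, without a call. The 3 box C/D proteins had no call: Nop58 was at -0.24, the methyltransferase Fbl at -0.08 and Nop56 at 0.02. Whether box H/ACA and box C/D genes differ from each other was not tested.

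Ncl, the abundant precursor-binding protein nucleolin, measured 196, 218 and 179 FPKM in siEXOSC3 against 253, 259 and 238 FPKM in scramble (-0.34, limma adjusted p = 0.0172), with no overlap. Ubtf, the factor that organises rDNA chromatin for RNA polymerase I, was decreased to 79.4% of scramble (-0.33, limma adjusted p = 0.026). The methyltransferases Nop2 at -0.24 and Rrp8 at -0.27 had no call. In 60S assembly, 1 of 3 PeBoW genes and 1 of 6 other factors were decreased, against 15.7% of all genes. Pes1, a PeBoW scaffold, stood at 82.3% of scramble (-0.28, limma adjusted p = 0.0177), while its partners Bop1 (-0.09) and Wdr12 (0.05) had no call. Rrp15, a pre-60S factor, stood at 79.3% (-0.34, limma adjusted p = 0.0255). The paralogs Rrp1 and Rrp1b, whose reads can be shared, were at -0.03 and -0.33 without a call. Rrs1, needed for 5S particle incorporation, was at -0.37 with overlapping groups, and Nop16 at -0.10.

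**Figure D2:**
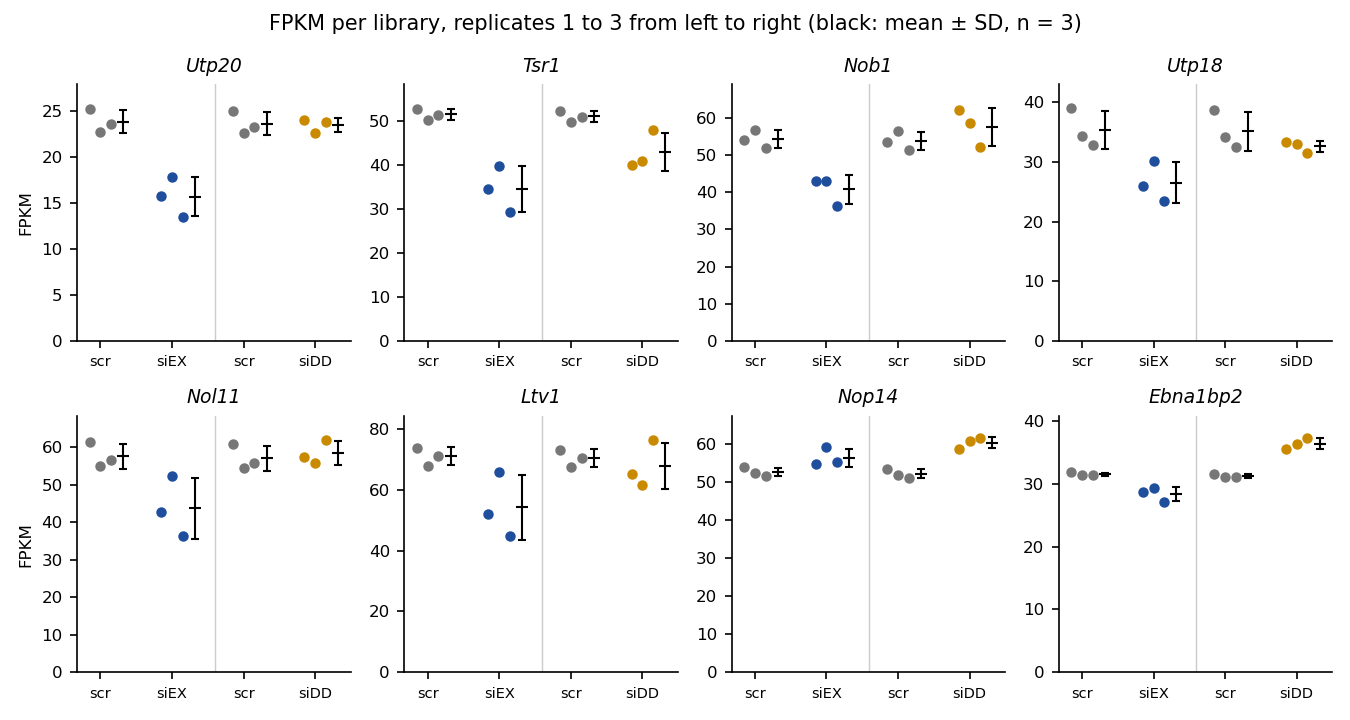
FPKM of 8 members in every library, with replicates 1 to 3 from left to right and the mean ± SD (n = 3) in black. In each panel the left pair is the siEXOSC3 table (scr, scramble; siEX, siEXOSC3) and the right pair the siDDX1 table (siDD, siDDX1), and each axis starts at 0. The 6 members with the largest decreases are lower in all 3 siEXOSC3 libraries than in scramble, while Nop14 and Ebna1bp2 are higher in all 3 siDDX1 libraries.

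The siEXOSC3 libraries differed among themselves in these genes. The median member's log2 difference from the scramble mean was -0.294 in replicate 1, -0.096 in replicate 2 and -0.496 in replicate 3. The medians of all genes in those libraries were -0.008, -0.009 and -0.02. Replicate 2 was the highest of the 3 in 38 of 42 members (90.5%, against 40.3% of all genes), and replicate 3 the lowest in 37 (88.1%, against 42.9%). All 17 decreased members were lowest in replicate 3. Residual Exosc3 ran in the same order, at 15.5%, 17.4% and 13.6% of scramble, and relative depth was 0.827, 0.979 and 0.869. Their part in the order of the replicates was not tested. Scramble libraries, each set against the mean of the other scramble libraries, varied less, with member medians of 0.063, -0.061 and -0.008.

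**Figure D3:**
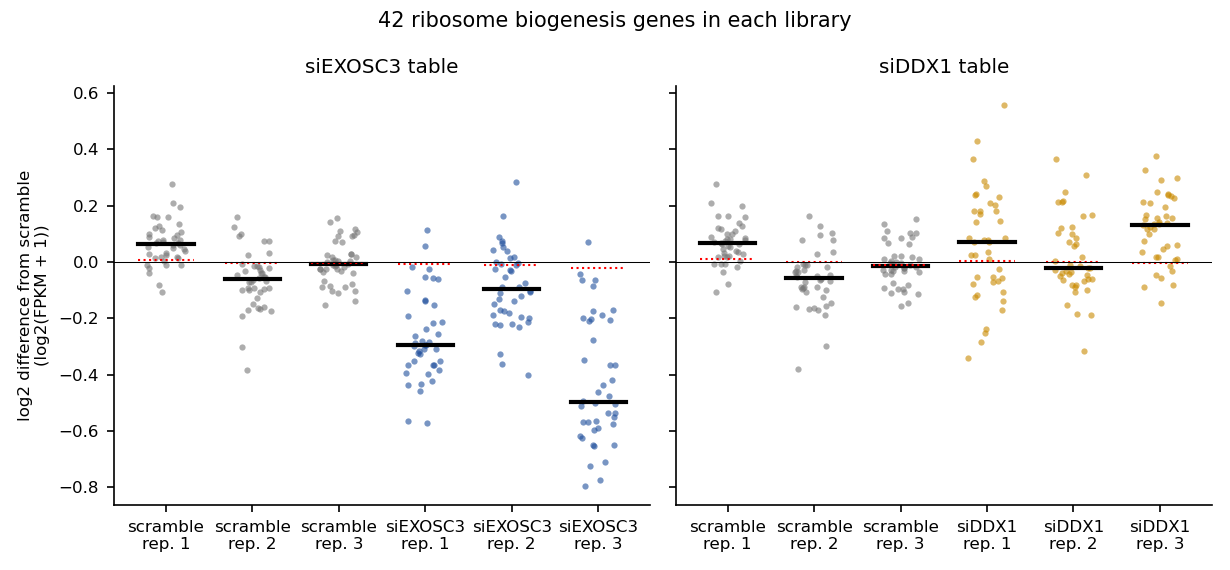
Log2 difference of each of the 42 genes from its scramble mean, on the log2(FPKM + 1) scale, in each library of the siEXOSC3 table (left) and the siDDX1 table (right). Each scramble library is set against the mean of the other scramble libraries. Each point is 1 gene, black lines are member medians and red dotted lines are medians of all genes tested. The siEXOSC3 medians are -0.294, -0.096 and -0.496, and the siDDX1 medians are 0.072, -0.021 and 0.133.

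The count of decreased members depended on single libraries. It was 29 without siEXOSC3 replicate 2 and 13 without replicate 3, but 4 without replicate 1, and 3, 7 and 7 without scramble replicate 1, 2 or 3. The share of all genes decreased moved as well, between 5.18% and 22.3% over these fits. Utp20, Tsr1 and Nob1 were decreased under each of the 14 alternatives, and Utp15 under 13, losing its call without scramble replicate 1 (limma adjusted p = 0.0754). The least steady calls were those of Wdr43 (5 of 14), Imp4 and Ltv1 (6 each) and Nol11 (7). The remaining decreased members kept theirs under 8 to 11. The number of members below 0 stayed at 39 or 40 throughout.

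**Figure D4:**
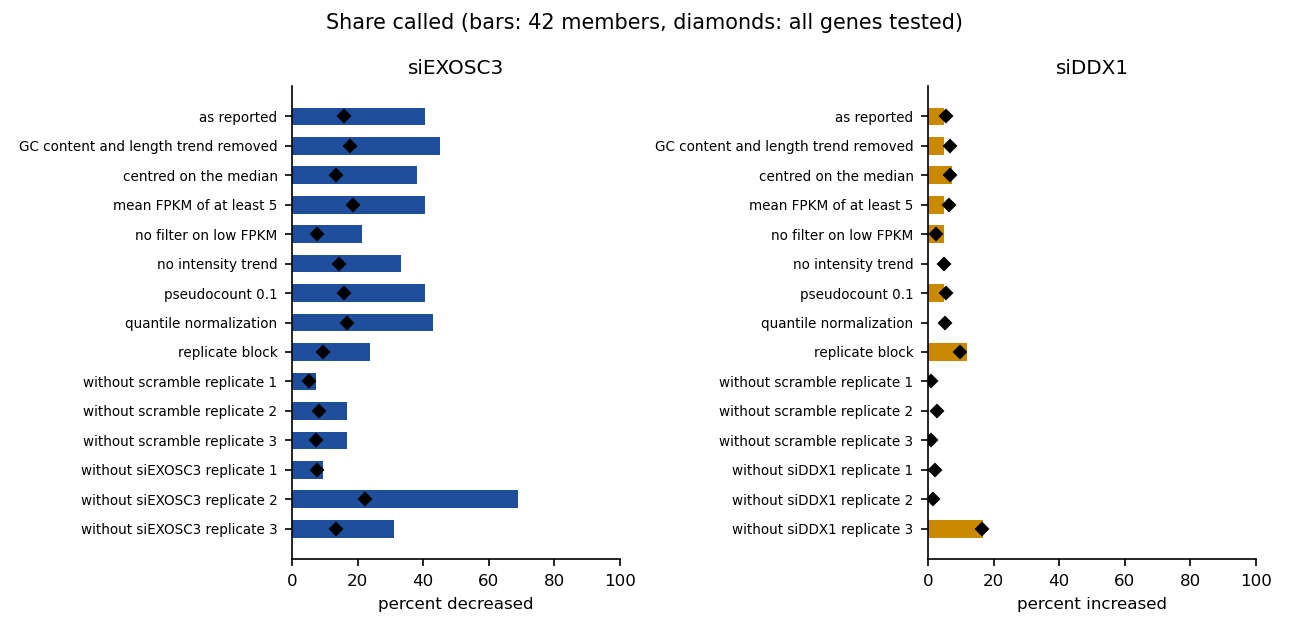
Share of the 42 members (bars) and of all genes tested (diamonds), in percent, that were decreased in siEXOSC3 (left) or increased in siDDX1 (right) by limma at an adjusted p under 0.05, for the reported analysis and 14 alternatives. The siEXOSC3 bars range from 3 to 29 of 42 members, each bar reaching past its diamond. The siDDX1 bars range from 0 to 7 members.

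Other transcripts of the same pathway were examined from fixed lists. Among 79 further ribosome biogenesis factors, 26 were decreased (32.9%, against 15.7% of all genes) and 2 increased (2.53%, against 16.7%) in siEXOSC3, with a median log2 fold change of -0.20. The largest decreases were in Pinx1, a nucleolar telomerase inhibitor (-0.81), the RNA helicase Ddx31 (-0.60) and the SSU factor Utp14a (-0.58). The 2 increased genes, named after their values were seen, were Gnl3l, a nucleolar GTPase (0.55), and Utp11l (0.21). Of 14 RNA polymerase I machinery genes tested, 6 were decreased (42.9%) and 0 increased, and all 14 estimates were below 0. Polr1b and Polr1a, the large catalytic subunits, were at -0.57 and -0.37, and Taf1d, a promoter selectivity factor subunit, at -0.36.

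Of 8 genes for nucleases and cofactors of spacer removal and 5.8S rRNA processing, 2 were decreased (25%, against 15.7% of all genes), and all 8 estimates were below 0, with a median of -0.15. The 2 were Isg20l2, an exonuclease (-0.40), and Skiv2l2, which encodes the exosome helicase MTR4 (-0.21). Among 12 RNase MRP and rRNA-processing RNA genes, Rpp30 (-0.54) and Pop4 (-0.45) were decreased while Rpp21 (0.59) was increased, each a protein subunit of RNase P, RNase MRP or both, making 16.7% decreased and 8.33% increased. The 9 MYC family genes had 2 increases and 0 decreases (22.2% increased, against 16.7% of all genes). Myc, listed at a higher FPKM than Mycn in every library, measured 122, 135 and 112 FPKM against 123, 120 and 128 FPKM, with overlapping groups (-0.01, 95% interval -0.19 to 0.17, limma adjusted p = 0.905). Mycn, the neuroblastoma oncogene, rose from 3.78, 3.38 and 4.15 FPKM to 6.77, 7.0 and 9.40 FPKM (0.86, limma adjusted p = 0.00299). Mxi1, which opposes MYC, rose by 0.62 on the log2 scale. Neural markers moved too: 7 of the 9 tested were increased in siEXOSC3, and the list's summed level was 809 to 828 FPKM against 489 to 528 FPKM in scramble. Among 3 endothelial genes Pecam1 was also increased, from 3.8 to 4.49 FPKM up to 6.11 to 9.08 FPKM, and the summed list went from 3.84 to 4.51 FPKM in scramble to 6.15 to 9.08 FPKM. The part of these markers in the fall of the ribosome biogenesis genes was not tested.

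After DDX1 depletion few of the same genes passed the test. By limma, 2 of 42 members (4.76%) were increased, Ebna1bp2 and Nop14, against 5.61% of 11104 genes tested, and 0 were decreased, against 5.03% (10.6% of all genes in either direction). At an unadjusted p under 0.05, 8 of the 42 members were higher and 1 lower, against 1678 higher and 1667 lower of all 11104 genes. The median member's log2 fold change was 0.05, with a range from -0.25 to 0.38, and 28 members lay above 0 and 14 (33.3%, against 50.1% of all genes) below. The number below 0 varied from 8 to 19 over the 14 alternatives, and the median stayed above 0, between 0.02 and 0.09. All 3 siDDX1 values lay above scramble in 9 members (21.4%, against 17.0% of all genes) and below in 1 (2.38%, against 17.8%).

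Ebna1bp2, a 60S assembly factor, measured 35.5, 36.3 and 37.2 FPKM in siDDX1 and 31.5, 31.1 and 31.0 FPKM in scramble. Its log2 fold change was 0.21 (SE 0.0541, limma adjusted p = 0.0431). Nop14, a protein of the SSU processome, measured 58.8, 60.8 and 61.6 FPKM against 53.5, 51.9 and 51.1 FPKM (0.21, SE 0.0541, limma adjusted p = 0.0468). Neither gene's groups overlapped, and each kept its call under 7 of the 14 alternatives. The count of increased members was 0 when any single library other than siDDX1 replicate 3 was left out, and 7, with 2 decreased, without siDDX1 replicate 3 (16.4% of all genes increased and 15.4% decreased). Their RefSeq promoter windows are shown as those of the 2 increased genes, with the same motifs in capitals: Nop14 at chr5:34660099-34660398 (minus strand) and Ebna1bp2 at chr4:118620549-118620848 (plus strand), GRCm38.p6.
Nop14 promoter: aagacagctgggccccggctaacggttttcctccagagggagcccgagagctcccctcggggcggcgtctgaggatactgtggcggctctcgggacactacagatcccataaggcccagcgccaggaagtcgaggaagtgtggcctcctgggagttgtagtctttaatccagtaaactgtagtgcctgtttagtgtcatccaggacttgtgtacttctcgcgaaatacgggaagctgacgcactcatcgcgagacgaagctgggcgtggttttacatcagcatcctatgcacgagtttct
Ebna1bp2 promoter: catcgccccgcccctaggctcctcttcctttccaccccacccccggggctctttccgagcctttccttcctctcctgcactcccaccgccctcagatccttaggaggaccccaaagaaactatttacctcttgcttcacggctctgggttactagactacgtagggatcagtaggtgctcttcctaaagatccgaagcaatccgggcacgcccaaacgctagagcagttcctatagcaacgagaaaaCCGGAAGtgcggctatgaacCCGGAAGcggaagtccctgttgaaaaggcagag
The Nop14 window held neither motif. The Ebna1bp2 window held 2 ETS-type motifs, beginning 3 bases upstream and 17 bases downstream of the start, and no E-box.

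The nearest members without a call in siDDX1 were Fbl and Rrp9. Fbl, the methyltransferase of box C/D particles, measured 274, 253 and 227 FPKM against 206, 211 and 194 FPKM (0.30, limma adjusted p = 0.0532). Rrp9 measured 30.7, 24.6 and 26.0 FPKM against 22.2, 17.8 and 22.0 FPKM (0.38, limma adjusted p = 0.0612). In both genes every siDDX1 library was above every control. The 3 PeBoW genes had estimates from 0.17 to 0.19 with no call, of which only Wdr12 had groups that did not overlap. Tsr1 was the lowest member, with 40.05, 40.8 and 47.9 FPKM against 52.3, 49.8 and 50.8 FPKM (-0.25, limma adjusted p = 0.0745). For Utp20 the estimate was -0.01 (95% interval -0.16 to 0.14) and for Nob1 0.09 (95% interval -0.08 to 0.27).

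The 17 members decreased in siEXOSC3 ranged in siDDX1 from -0.25 (Tsr1) to 0.17 (Pes1). In 4 members all siEXOSC3 libraries were below scramble and all siDDX1 libraries above it: Gar1, Npm1, Wdr43 and Ebna1bp2 (9.52%, against 1.29% of the 11054 genes tested in both tables). Npm1 measured 1780, 1802 and 1766 FPKM in siEXOSC3 against 2013, 2189 and 1906 FPKM in scramble (-0.19, limma adjusted p = 0.12). In its other table it measured 2361, 2597 and 2225 FPKM in siDDX1 against 1997, 2172 and 1883 FPKM (0.25, limma adjusted p = 0.194). Npm1 has many processed pseudogenes, so its counting is uncertain. Gar1 measured 115, 114 and 119 FPKM in siDDX1 against 99.2, 111 and 103 FPKM (0.15, limma adjusted p = 0.138). Wdr43 measured 71.7, 72.4 and 75.2 FPKM against 69.7, 67.6 and 67.2 FPKM (0.10, limma adjusted p = 0.251). Ebna1bp2 measured 28.6, 29.2 and 27.1 FPKM in siEXOSC3 against 31.8, 31.3 and 31.4 FPKM (-0.15, limma adjusted p = 0.0932). Both comparisons used the same scramble libraries, and the difference between the knockdowns was not tested.

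The further lists were mostly without a call in siDDX1. Of the 79 other biogenesis factors, 5 were increased (6.33%, near the 5.61% of all genes) and 0 decreased, with a median of 0.07. Rcl1, an SSU factor (0.37), Nle1, a 60S factor (0.37), and Nol12 (0.30) had the largest increases, and the other 2, named after their values were seen, were Mybbp1a (0.29) and Utp11l (0.25). None of the 14 RNA polymerase I genes or the 8 spacer-removal genes passed the limma threshold. At an unadjusted p under 0.05 these lists held 0 and 1 genes, against 3345 of all 11104 genes. Rpp21 (0.53) was increased and Rpp25 (-0.65), another RNase P and MRP subunit, decreased. Myc, the best-known activator of ribosome biogenesis genes, measured 168, 160 and 187 FPKM against 122, 119 and 127 FPKM (0.48, limma adjusted p = 0.00899). It was the 1 increased gene of 9 in its family. Of the 9 neural markers tested, 1, Gap43, was increased, and the list's sum was 494 to 538 FPKM against 485 to 522 FPKM.

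Gene structure was compared between called and uncalled members. The 17 decreased genes had a median exonic length of 3837 bases and a GC content of 47.3%, and the other 25 had 2734 bases and 50.3%. All genes tested had 3708 bases and 49.9%, so the decreased members were near the general length and the others shorter. With a trend on GC content and length removed from each library, 19 members were decreased. Of the members, 6 hold snoRNA genes inside them (Nop56, Nop58, Dkc1, Ncl, Wdr43 and Tsr1), and 3 of these were decreased in siEXOSC3, beside 14 of the other 36. The 7 such snoRNAs in the tables were listed at 0 in every library. Libraries did not keep strand, and 13 members have exons overlapping a gene on the opposite strand, 4 of them decreased. For Tsr1 the partner Srr was at 0.13 and for Nhp2 the partner Rmnd5b at -0.04 in siEXOSC3, neither called. The partner of Pno1, Wdr92, was itself decreased (-0.26, limma adjusted p = 0.0273).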

How the data were processed

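Total RNA from 3 cultures per condition was depleted of rRNA and sequenced without strand information. Per the submitters' processing notes, reads were aligned to mm9 with TopHat2 2.1.0, sorted with SAMtools and quantified with Cuffdiff 2.2.1. The authors deposited FPKM per gene and library in a separate table for each knockdown, both including scramble. The annotation and scaling used by Cuffdiff are not given in the sources used here. All 12 sample columns were matched to samples and 0 were left out.

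FPKM are not counts, so limma 3.58.1 (R 4.3.3, two-sided, with an intensity trend) was applied in each table to log2(FPKM + 1), keeping genes whose mean over the 6 libraries reached 1 FPKM, with Benjamini-Hochberg adjustment over all genes and a threshold of 0.05. The pseudocount of 1 understates changes of low genes. The script was tested on simulated data. Lengths, GC content and overlaps came from GENCODE on NCBIM37 (mm9), and promoters from RefSeq (GRCm38.p6). Python 3.11.15 with pandas 2.3.3 and matplotlib 3.10.9 made summaries and plots.

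The members and all lists were chosen with earlier results of these data known. Values in every library were given for the targeted gene, the 12 called members with the largest fold change, the 2 nearest the threshold on either side, and members moving oppositely without overlap. Outside this rule, such values were also given for Mphosph10, Nop14, Myc and Mycn in siEXOSC3 and for Tsr1 and Myc in siDDX1. From each further list up to 3 called genes per knockdown were named. Alternatives changed the pseudocount, filter, trend, scaling, GC and length trend, threshold, replicate block and each library.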

Additional observations from a re-analysis of the deposited data

Results flagged for a closer look

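Gar1, Npm1, Wdr43 and Ebna1bp2 are listed here because all 3 siEXOSC3 libraries lay on one side of scramble and all 3 siDDX1 libraries on the other. This held for 9.52% of the 42 members and, in the same direction, 1.29% of the 11054 genes tested in both tables. For Gar1, the H/ACA core protein, the log2 fold change was -0.36 in siEXOSC3 and 0.15 in siDDX1. For Npm1, nucleophosmin, it was -0.19 and 0.25. For Wdr43, of the UTP-A module, it was -0.26 and 0.10, and for Ebna1bp2, a 60S factor, -0.15 and 0.21. The difference between the knockdowns was not tested, because the tables were scaled separately, and both used the same scramble libraries.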

How the results depend on the processing

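The 17 members decreased in siEXOSC3 became 9 with no filter on low FPKM, when more genes were tested, and 3 at an adjusted p under 0.01. Leaving out 1 library gave from 3 (without scramble replicate 1) to 29 (without siEXOSC3 replicate 2). The 2 members increased in siDDX1 became 0 without an intensity trend, 0 with quantile normalization and 0 at an adjusted p under 0.01. Leaving out 1 library gave from 0 (each library except siDDX1 replicate 3) to 7 (without siDDX1 replicate 3), and the 0 decreased members became 0 to 2, with 2 also without siDDX1 replicate 3. The cause of these shifts was not tested. With the replicate number as a block, 10 members were decreased in siEXOSC3, against 9.42% of all genes (15.7% in the reported fit). In siDDX1 5 members were increased with this block, against 9.77% of all genes (5.61% in the reported fit), so the share of all genes rose as well. The labels do not say whether equal replicate numbers pair samples, and the reported fits took them as unpaired. Same-numbered correlations were 0.035, -0.310 and -0.126 in siEXOSC3 and -0.012, 0.379 and 0.372 in siDDX1. In siDDX1, scramble replicate 2 with knockdown replicate 3 gave -0.372, and scramble replicate 3 with knockdown replicate 2 gave -0.376. Whether same-numbered libraries share an effect was not tested. The median of the members kept its sign under every alternative run, at -0.20 to -0.40 in siEXOSC3 and 0.02 to 0.09 in siDDX1. With 3 libraries a group and FPKM only, small changes of low genes could be missed, and the limit of detection for such genes was not measured.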
